A study of Mus musculus with 11 samples.

Results

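The genes described here are 9 transcription regulators that stand between the core circadian clock and its target genes. They are the PAR bZIP activators Dbp, Tef and Hlf, their competitor Nfil3, the nuclear receptors Rora and Rorb, and the repressors Bhlhe40, Bhlhe41 and Ciart. The members were taken by gene symbol, and all 9 were found among the 14864 genes of the deposited RNA-seq table. RNA came from the hypothalamus of mice aged 60 to 70 postnatal days, in a study that by its title asks what loss of MYT1L, a neuronal zinc finger transcription factor, does to that tissue. The wild-type group (WT) had 2 females and 3 males, and the group labelled Het had 3 females and 3 males. The sources used here do not give the mutated allele, the strain or the hour of dissection, and nothing beyond the words biological replicates ties a library to a separate animal.

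In the circadian clock, CLOCK and BMAL1 (encoded by Clock and Arntl) bind E-boxes and switch on genes whose products later shut them off. PAR bZIP proteins, named for a stretch rich in proline and acidic residues, carry this rhythm to target genes by binding D-boxes, where NFIL3 (also called E4BP4) competes as a repressor. ROR receptors activate and REV-ERB receptors (Nr1d1, Nr1d2) repress through a shared element called the RORE, found in Arntl and other genes. BHLHE40 and BHLHE41 (DEC1 and DEC2) and CIART (CHRONO) repress CLOCK and BMAL1 at E-boxes. In the hypothalamus the suprachiasmatic nucleus holds the master clock, and Rorb is known from it as well as from thalamus, cortex and retina.

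Promoter letters are shown first because they mark which members carry the elements of this network close to their start. RefSeq promoter windows of build GRCm38.p6, running from 250 bases before to 50 after a start, were matched by symbol for 8 of the 9 genes; Bhlhe40 was not matched. The 5 stretches below are the 160 bases just before the start, 5′ to 3′ on the gene's strand, with motif letters in capitals. Capitals mark the E-box letters CACGTG in Tef, Bhlhe41 and Ciart, the CRE letters TGACGTCA in Hlf, and in Nfil3 the reverse complement of the RORE core TAGGTCA.
Tef: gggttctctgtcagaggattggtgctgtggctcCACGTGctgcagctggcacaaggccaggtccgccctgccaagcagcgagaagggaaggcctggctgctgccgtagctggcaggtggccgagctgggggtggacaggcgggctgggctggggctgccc
Bhlhe41: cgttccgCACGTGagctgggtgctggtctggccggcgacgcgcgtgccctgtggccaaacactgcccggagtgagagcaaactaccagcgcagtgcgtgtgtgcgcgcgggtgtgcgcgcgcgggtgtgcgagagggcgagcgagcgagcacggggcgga
Ciart: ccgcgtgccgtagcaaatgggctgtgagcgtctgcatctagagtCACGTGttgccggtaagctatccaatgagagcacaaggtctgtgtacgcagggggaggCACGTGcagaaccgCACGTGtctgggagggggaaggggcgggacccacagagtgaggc
Hlf: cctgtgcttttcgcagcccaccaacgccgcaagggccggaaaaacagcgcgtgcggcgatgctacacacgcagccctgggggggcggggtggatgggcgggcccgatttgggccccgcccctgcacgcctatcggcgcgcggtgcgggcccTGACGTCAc
Nfil3: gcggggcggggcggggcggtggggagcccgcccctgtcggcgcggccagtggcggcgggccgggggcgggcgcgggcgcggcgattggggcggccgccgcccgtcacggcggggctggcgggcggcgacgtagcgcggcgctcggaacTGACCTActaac
These stretches lie on chr15:81802513-81802672 (Tef, plus strand), chr6:145865421-145865580 (Bhlhe41, minus strand), chr3:95882229-95882388 (Ciart, minus strand), chr11:90390918-90391077 (Hlf, minus strand) and chr13:52981040-52981199 (Nfil3, minus strand).

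Letters were searched on both strands of whole windows. CACGTG stood in windows of 3 of 8 members, with 3 copies in Ciart at 116, 58 and 44 bases before the start, 1 in Bhlhe41 at 153 bases before it and 1 in Tef at 127 bases before it, and a second Tef window held 1 more. Of 32817 promoter windows, 7.15% held these letters. The RORE core was found in Nfil3 alone among the 8 (2.61% of all windows) and the CRE letters in Hlf alone (1.79% of all windows). No member window held the D-box letters TTATGTAA or TTACGTAA, which 1.05% of all windows held, and the E-box variant CACGTT was found in a second Rorb window (4.69% of all windows). The windows of Dbp and Rora and the first Rorb window held none of the letters searched. A match of letters is a description and not a binding site.

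Depth after the authors' correction ran from 22921048 to 24941704 corrected counts in a library, so that a single corrected count was worth 0.0417 to 0.0423 CPM (counts scaled to a library of fixed size). The targeted gene did not separate the labels: Myt1l was 76.3 ± 15.9 CPM across WT (SD, n = 5) and 76.3 ± 26.9 CPM across Het (SD, n = 6), with 51.1 CPM in the library labelled WT replicate 11 and 130 CPM in the one labelled Het replicate 9. The other libraries ran from 70.5 to 89.3 CPM in WT and from 58.7 to 75.9 CPM in Het. The Myt1l log2 difference was -0.25 in females alone and 0.18 in males alone. WT and Het below mean libraries so labelled, and values without WT replicate 11 and Het replicate 9 stand beside the calls. Hypothalamic markers were present, with none at 0 among the 16 of 17 that were in the table, and their summed level was 3709 to 4647 CPM in WT and 2652 to 3958 CPM in Het. Of these markers Hcrt, Pmch, Avp, Oxt and Gal fell and 11 did not pass the test. Only 1 of the 16 had a positive difference. The median log2 difference was -0.25, and 9 had an unadjusted limma p under 0.05. Striatal markers, 14 of 14 with a positive difference and 7 past the test, summed to 1951 to 2495 CPM in WT and 2270 to 4111 CPM in Het, with none at 0. The 12 markers of the suprachiasmatic nucleus were all in the table with none at 0, and 7 had a positive difference, with a median of 0.10. Avp alone passed, and it fell, while 6 of the 12 had an unadjusted limma p under 0.05. Their summed level was 451 to 657 CPM in WT and 314 to 569 CPM in Het. Avp by itself was 359 to 555 CPM in WT and 215 to 462 CPM in Het.

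Rorb rose in Het and Hlf rose less surely, while the other 7 regulators did not pass the genotype test. The test was limma's on log2(CPM + 0.5) with sex as a term, with Benjamini-Hochberg adjustment over 13184 genes and a threshold of 0.05, and all 9 regulators passed its filter of a mean of 1 CPM. Thus 2 of 9 were called, both higher, where 2.30% of all genes tested were called higher in Het and 1.14% lower (3.44% in all; 303 higher and 150 lower, or 233 and 243 after median centring). Without the libraries labelled WT replicate 11 and Het replicate 9, 1 of 9 was called, Rorb. At an unadjusted p under 0.05 the count was 5 of 9 (Rorb, Hlf, Tef, Bhlhe40 and Nfil3), against 22.3% of all genes. The 9 were chosen with earlier results of these data known, so these counts describe them and do not test them. The median log2 difference of the 9 was 0.12 and that of all genes tested -0.02, and the median size was 0.21 against 0.14. These adjusted p-values come from values that the authors had already corrected on residuals, which makes them too small by an unknown amount. After each gene was centred, 1 direction of variation among libraries was almost absent, with a singular value of 2.125 against 26.95 for the next larger. A fit with 1 residual degree of freedom fewer allows for 1 such direction. In that fit 189 genes and 1 of the 9 passed: Rorb did (limma adjusted p = 0.0118) and Hlf did not (limma adjusted p = 0.0582).

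**Figure D1:**
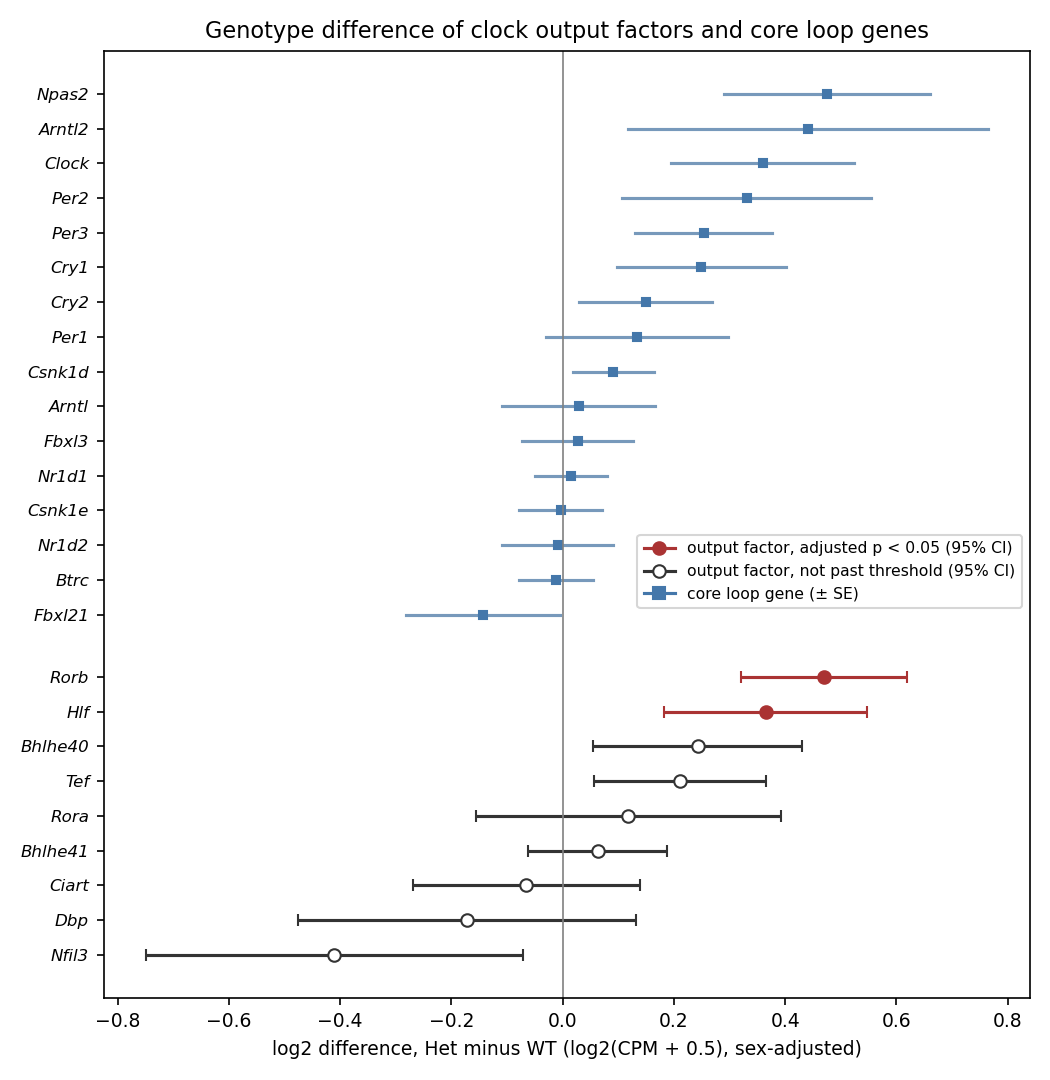
Log2 difference between Het and WT (x axis, log2(CPM + 0.5), adjusted for sex) for the 9 output regulators (circles, bars are 95% confidence intervals, filled where the adjusted p is under 0.05) and 16 core loop genes (squares, bars are ± 1 standard error). Rorb at 0.47 and Hlf at 0.36 are the filled circles, and Nfil3 lies lowest at -0.41.

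Among the ROR receptors, Rorb separated the genotypes completely. Rorb (ENSMUSG00000036192, mm10 chromosome 19 from 18930605 to 19111196) had 31.6, 32.0, 36.6, 37.8 and 33.9 CPM in WT replicates 4, 6, 3, 7 and 11. In Het replicates 2, 4, 7, 5, 8 and 9 it had 46.0, 42.2, 51.2, 46.7, 49.0 and 49.5 CPM. All 6 Het values lay above all 5 WT values, in females and in males alike, as was true of 2.02% of all genes tested (3.35% in either direction). The means were 34.4 ± 2.74 CPM (SD, n = 5) and 47.4 ± 3.19 CPM (SD, n = 6), a fitted log2 difference of 0.47 (SE 0.071, 95% confidence interval 0.32 to 0.62, limma adjusted p = 0.00536). An exact two-sided permutation of genotype within sex gave p = 0.005, the smallest that its 200 arrangements allow. It was run on the same corrected values, so it and the other permutation p-values for genotype can also be too small. Rorb passed in all 11 runs that left out 1 library, with differences of 0.44 to 0.49, and without WT replicate 11 and Het replicate 9 it was at 0.45 (limma adjusted p = 0.0238). Within the identifier prefixes of the labels, whose meaning is not given, it was at 0.36 among the 4 males of prefix 14308 and at 0.53 among the 6 libraries of prefix 14309, and passed in neither. In females alone Rorb was at 0.53 and in males alone at 0.42 (limma adjusted p = 0.148 and 0.186). It passed in neither sex alone, where 0 and 1 of all genes passed.

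Striatal markers that passed rose and hypothalamic markers that passed fell in the group with higher Rorb, with the counts and sums given above, and their part in the Rorb and Hlf results was not tested. Without WT replicate 11 and Het replicate 9, 7 striatal and 3 hypothalamic markers passed. In bulk tissue, more RNA per cell and more cells that express a gene cannot be told apart. Of 10 thalamic markers tested 6 had a positive difference and 1 passed, Tcf7l2, which rose at a log2 difference of 0.39. Without WT replicate 11 and Het replicate 9, 0 of the thalamic markers passed. Their summed level was 829 to 953 CPM in WT and 765 to 963 CPM in Het. Of 10 cortical and hippocampal markers tested 6 had a positive difference, with a median of 0.11 for the 10, and 4 had an unadjusted limma p under 0.05. Only Wipf3 passed, and it rose at a log2 difference of 0.66. The sums were 97.1 to 142 CPM in WT and 106.5 to 164 CPM in Het.

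Rora, the paralog of Rorb and the widely expressed member of the pair, did not pass the genotype test, and it was not tested against Rorb. Rora (ENSMUSG00000032238, chromosome 9 from 68653786 to 69388246) ran from 16.0 CPM in WT replicate 11 to 25.1 CPM in WT replicate 6 and from 17.9 to 24.7 CPM in Het, so every Het value lay within the WT range. Its log2 difference was 0.12 (SE 0.13, 95% confidence interval -0.16 to 0.39, limma adjusted p = 0.625), and it moved between 0.05 without WT replicate 11 and 0.24 without WT replicate 6, or to 0.04 without both WT replicate 11 and Het replicate 9. The ratio of Rorb to Rora within a library was 1.79 ± 0.41 across WT (SD, n = 5) and 2.23 ± 0.22 across Het (SD, n = 6), with overlapping ranges of 1.27 to 2.28 and 1.90 to 2.57, and was not tested.

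**Figure D2:**
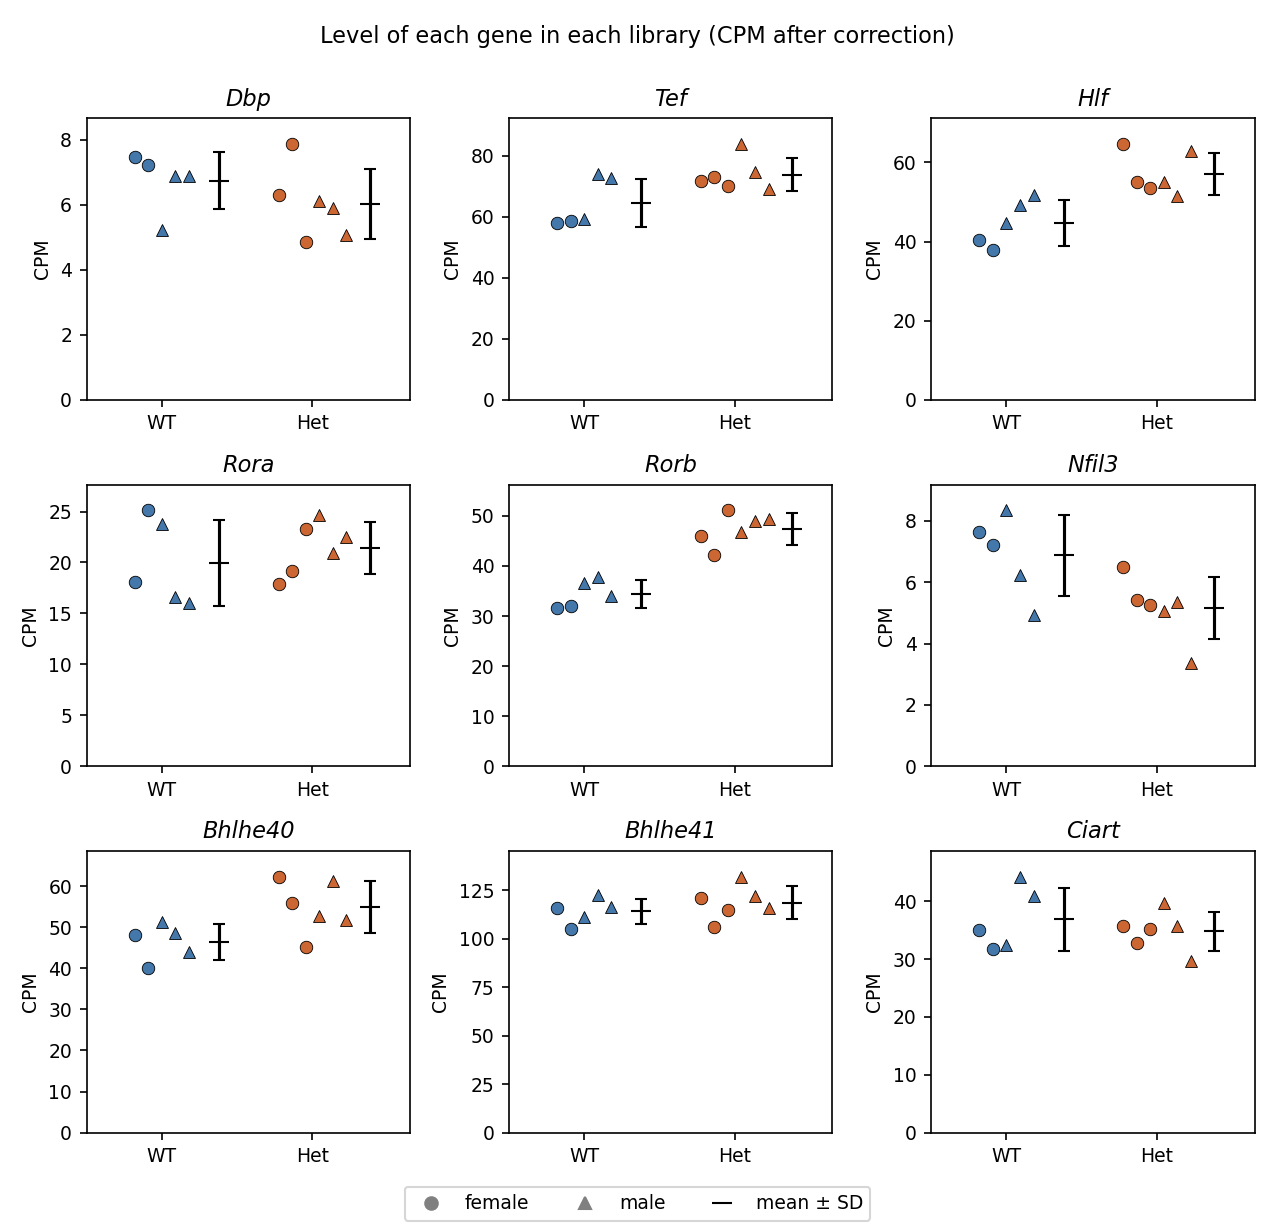
Level of the 9 genes in every library (y axes, CPM after the authors' correction, starting at 0) by genotype, with females as circles, males as triangles and the mean ± SD beside each group. Rorb is the panel in which WT (31.6 to 37.8 CPM) and Het (42.2 to 51.2 CPM) share no range.

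Of the PAR bZIP activators, Hlf passed the genotype test, but not with 1 residual degree of freedom fewer (limma adjusted p = 0.0582). Tef and Dbp passed in neither fit. Hlf (ENSMUSG00000003949, chromosome 11 from 90336536 to 90390895) had 40.5, 37.8, 44.7, 49.2 and 51.7 CPM in WT replicates 4, 6, 3, 7 and 11. In Het replicates 2, 4, 7, 5, 8 and 9 it had 64.7, 55.1, 53.5, 55.1, 51.5 and 62.9 CPM. The groups met at 1 point: Het replicate 8 lay just below WT replicate 11, and the other 5 Het values lay above all WT values. The 2 WT females were lowest, and the gap between genotypes was wider in females (log2 difference 0.55) than in males (0.21). Hlf passed in neither sex alone (limma adjusted p = 0.143 and 0.454).

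The fitted Hlf difference was 0.36 (SE 0.086, 95% confidence interval 0.18 to 0.55, limma adjusted p = 0.0321); the WT mean was 44.8 ± 5.81 CPM (SD, n = 5), and that of Het was 57.1 ± 5.35 CPM (SD, n = 6). The exact permutation of genotype within sex gave p = 0.01. The call lay near the threshold: with 1 library left out the log2 difference stayed between 0.31 and 0.42, and Hlf passed in 6 of 11 runs. It did not pass without replicates 4 or 6 of WT (limma adjusted p = 0.075 and 0.112) or replicates 2, 4 or 9 of Het (0.0638, 0.0557 and 0.0767), nor without both WT replicate 11 and Het replicate 9 (0.052, log2 difference 0.38). With the prefix as a block the difference was 0.34 (limma adjusted p = 0.0621), and it was 0.18 within prefix 14308 and 0.47 within prefix 14309 (limma adjusted p = 0.608 and 0.154), so the call was lost in each. Prefix 14111 held only WT replicate 4, so the block left that library no part in the difference, which was also 0.34 without it.

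**Figure D3:**
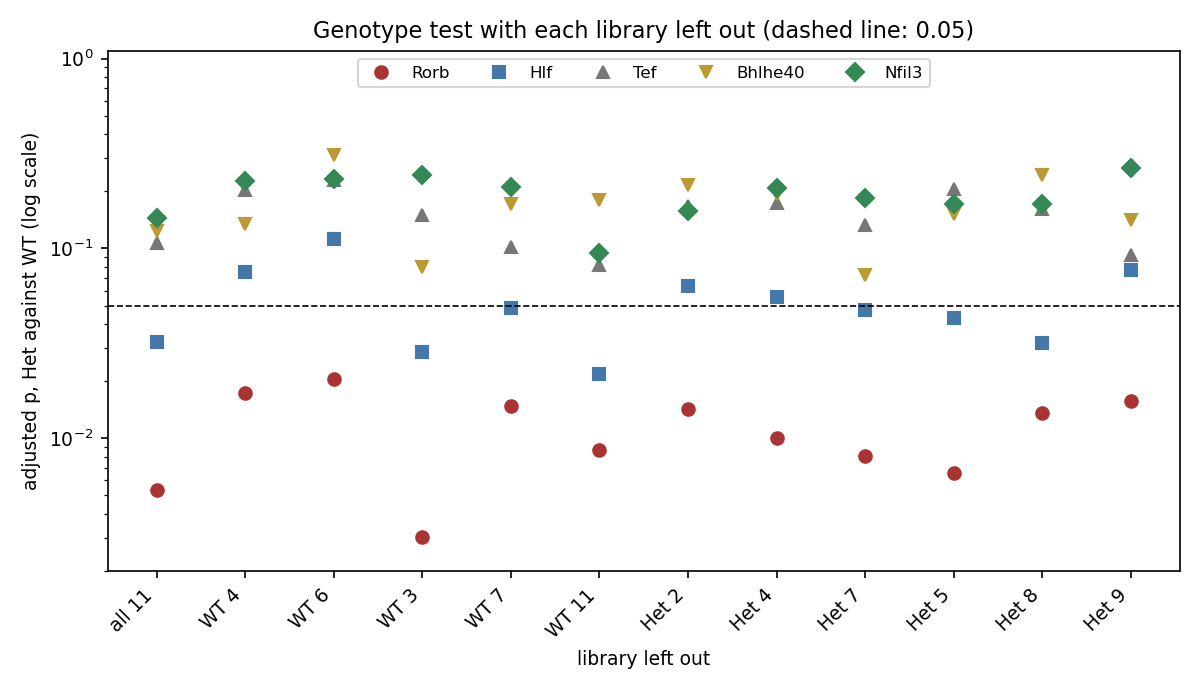
Limma adjusted p for Het against WT (y axis, log scale) with all 11 libraries and with each library left out (x axis), for the 5 genes with an unadjusted p under 0.05; the dashed line is 0.05. Rorb stays between 0.0030 and 0.0206, Hlf crosses the line, and Tef, Bhlhe40 and Nfil3 stay above it.

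Tef (ENSMUSG00000022389, chromosome 15 from 81802421 to 81826863), which encodes thyrotroph embryonic factor, had WT values in 2 clusters. WT replicates 4, 6 and 3 had 58.1, 58.8 and 59.2 CPM, while WT replicates 7 and 11 had 74.0 and 72.6 CPM. Het values ran from 69.3 to 84.0 CPM, so they covered the upper WT cluster and lay above the lower one. The log2 difference was 0.21 (SE 0.073, 95% confidence interval 0.06 to 0.37, limma adjusted p = 0.107), and the gene passed in none of the 11 runs with 1 library left out.

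Dbp (ENSMUSG00000059824, chromosome 7 from 45705088 to 45710203), which encodes the D-box binding protein and is known for a strong daily rhythm in many tissues, was the lowest of the PAR bZIP genes. It had 7.47, 7.22, 5.23, 6.88 and 6.89 CPM in WT replicates 4, 6, 3, 7 and 11 and 6.30, 7.88, 4.86, 6.12, 5.89 and 5.08 CPM in Het replicates 2, 4, 7, 5, 8 and 9. The highest and the lowest value were both in Het females, replicates 4 and 7. The log2 difference was -0.17 (SE 0.14, 95% confidence interval -0.48 to 0.13, limma adjusted p = 0.504), or -0.10 without Het replicate 7. Sphk2, on the opposite strand, overlaps 539 of the 2993 exon bases of Dbp, and since the use of strand in counting is not given, part of the Dbp reads is uncertain.

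Nfil3 (ENSMUSG00000056749, chromosome 13 from 52967209 to 52981073), the repressor that shares D-boxes with these activators, had the most negative difference of the 9 and did not pass. Its values were 7.64, 7.22, 8.35, 6.25 and 4.92 CPM in WT replicates 4, 6, 3, 7 and 11 and 6.51, 5.41, 5.24, 5.07, 5.35 and 3.36 CPM in Het replicates 2, 4, 7, 5, 8 and 9. All 6 Het values lay below the WT median of 7.22 CPM, but WT replicate 11 lay below 5 of them. The log2 difference was -0.41 (SE 0.16, 95% confidence interval -0.75 to -0.07, limma adjusted p = 0.145, exact permutation p = 0.03), and adjusted p ran from 0.0948 to 0.267 with 1 library left out. The ratio of Hlf to Nfil3 within a library was 6.86 ± 2.33 across WT (SD, n = 5) and 11.6 ± 3.52 across Het (SD, n = 6). It ranged from 5.23 to 10.5 in WT and from 9.64 to 18.7 in Het. The ratio of Tef to Nfil3 was 9.89 ± 3.30 (SD, n = 5) and 14.8 ± 3.34 (SD, n = 6), and that of Dbp to Nfil3 was 1.02 ± 0.28 (SD, n = 5) and 1.20 ± 0.25 (SD, n = 6). All 3 ratios overlapped between the genotypes and were not tested.

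The E-box repressors did not pass in either direction. Bhlhe40 (ENSMUSG00000030103, chromosome 6 from 108660629 to 108666925), which also responds to neuronal activity and many other stimuli, had 48.2, 40.1, 51.3, 48.6 and 44.1 CPM in WT replicates 4, 6, 3, 7 and 11. In Het replicates 2, 4, 7, 5, 8 and 9 it had 62.3, 55.9, 45.2, 52.8, 61.3 and 51.8 CPM. Of the 6 Het values 5 lay above all WT values, and Het replicate 7 lay within the WT range. The log2 difference was 0.24 (SE 0.089, 95% confidence interval 0.05 to 0.43, limma adjusted p = 0.124, exact permutation p = 0.05). Immediate early genes, which neurons switch on with activity, included 6 of 12 that rose in the same group (Fosl2, Egr1, Egr2, Egr3, Arc and Nr4a1), or 4 of 12 without WT replicate 11 and Het replicate 9. Their summed level was 129 to 186 CPM in WT and 180 to 284 CPM in Het, with none at 0. Of the 12, 9 had a positive difference. Fos, Ier2 and Dusp1 had log2 differences of -0.08, -0.19 and -0.37 and did not pass. This list was chosen with earlier results of these data known, and its part in the Bhlhe40 values was not tested.

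Bhlhe41 (ENSMUSG00000030256, chromosome 6 from 145858243 to 145865558), the paralog of Bhlhe40, varied least of the 9 between libraries, with a coefficient of variation of 6.63%. It ran from 104.8 to 122 CPM in WT and from 106 to 132 CPM in Het, with a log2 difference of 0.06 (SE 0.059, 95% confidence interval -0.06 to 0.19, limma adjusted p = 0.565) that ranged from 0.04 without Het replicate 5 to 0.09 without WT replicate 4. Gm43909 on the opposite strand overlaps 1280 of its 6720 exon bases. Ciart (ENSMUSG00000038550, chromosome 3 from 95878503 to 95882251) ran from 31.8 to 44.2 CPM in WT and from 29.6 to 39.7 CPM in Het. Its difference of -0.07 (SE 0.097, 95% confidence interval -0.27 to 0.14, limma adjusted p = 0.732) turned to 0.02 without WT replicate 11 and Het replicate 9.

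Between genes, levels were compared per kb of exon, using the joined exons of each gene in GENCODE M21. Bhlhe41 stood highest at 17.3 ± 1.15 CPM per kb (SD, n = 11), with Ciart at 15.8 ± 1.91 and Bhlhe40 at 10.9 ± 1.47. Tef followed at 8.84 ± 1.01 and Hlf at 7.71 ± 1.25 CPM per kb. Then came Rorb at 3.75 ± 0.67, Nfil3 at 2.93 ± 0.70, Dbp at 2.12 ± 0.34 and Rora at 1.59 ± 0.25 CPM per kb. Of the 8 pairs of neighbours in this order only Hlf and Rorb had ranges that did not overlap, with the lowest Hlf value at 5.65 and the highest Rorb value at 4.62 CPM per kb. Exon lengths count all annotated isoforms, so the level of a gene whose long isoforms are not used in this tissue is understated.

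**Figure D4:**
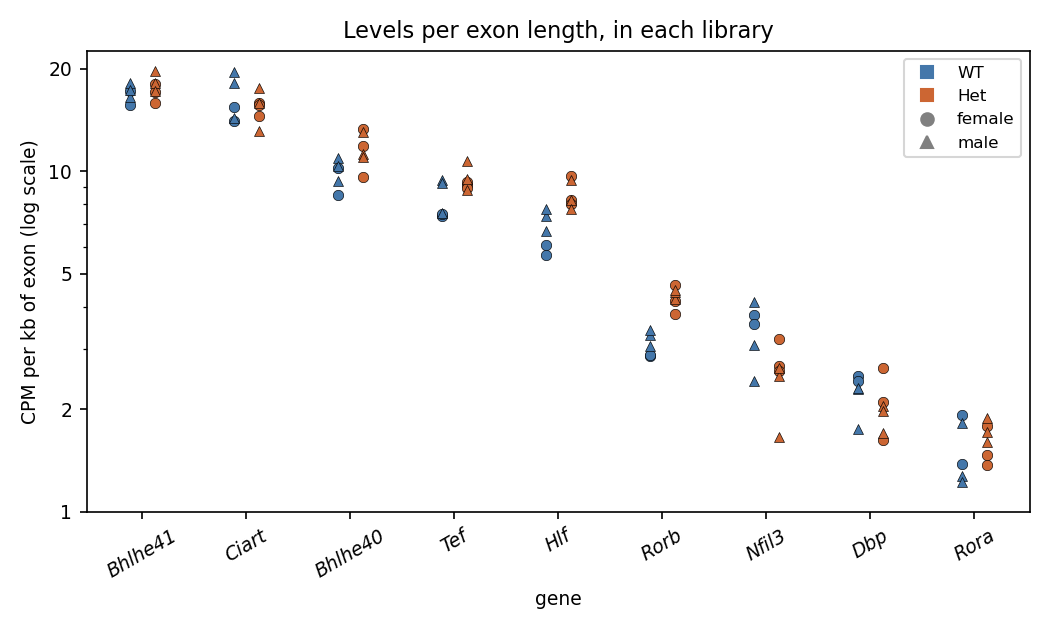
Level per kb of exon (y axis, CPM per kb, log scale) of the 9 genes in each library, ordered by mean, with WT in blue, Het in orange, females as circles and males as triangles. The step between Hlf (5.65 CPM per kb at the lowest) and Rorb (4.62 at the highest) is the gap in the order.

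Sex made no difference that passed for any of the 9. Differences between females and males ran from -0.14 (Tef) to 0.26 (Nfil3) on the log2 scale, 0 of 9 passed and 0 had an unadjusted limma p under 0.05, where 0.197% of all genes passed and 12.2% had such a p. Tef was 66.3 CPM in females and 72.3 CPM in males on average (limma adjusted p = 0.444, 95% confidence interval of the log2 difference -0.30 to 0.01). The genotype difference did not pass as different between the sexes for any of the 9 (0.00% of all genes passed, and 4.65% had an unadjusted p under 0.05). Hlf alone of the 9 had an unadjusted p under 0.05 for this interaction, its log2 genotype difference being 0.34 larger in females (95% confidence interval 0.00 to 0.67, limma adjusted p = 0.982). For Rorb the interaction was 0.12 (95% confidence interval -0.19 to 0.42) and for Rora it was -0.37 (95% confidence interval -0.91 to 0.17).

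Among libraries of the same genotype and sex, 21 of the 36 pairs of the 9 genes had a positive r, and no pair passed after adjustment. The pairs among Tef, Bhlhe41 and Ciart, the genes with CACGTG letters in the printed stretches, were all positive. Each gene was centred within the 4 groups of genotype and sex, and the 36 pairs of genes were correlated over the 11 libraries with exact two-sided permutation within groups. Ciart and Bhlhe41 had r 0.84 (p = 0.00463) and rho 0.81 (p = 0.00231, the smallest possible). Without Het replicates 5 and 4, the farthest in Bhlhe41, r was 0.83. WT replicate 3 and Het replicate 9, the farthest in Ciart, stayed in that run. Tef and Ciart had r 0.90 (p = 0.0417) and rho 0.76 (p = 0.0741), and Tef and Bhlhe41 had r 0.59 (p = 0.088) and rho 0.38 (p = 0.313). Without WT replicate 3 and Het replicate 5, the farthest in Tef, r was 0.79 and 0.39. WT replicate 3 was low in Tef and Ciart within its group and Het replicate 5 was high in both. These p-values are exact permutation values; over the 36 pairs the lowest adjusted p was 0.167 for r and 0.0833 for rho, and the latter is the lowest that a single pair can reach in this design.

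Other pairs of the 9 took several directions. Dbp and Tef, both PAR bZIP genes, had r 0.68 and rho 0.79 (exact permutation p = 0.00926 for both, adjusted over 36 pairs 0.167), and r was 0.95 without Het replicates 4 and 7, the farthest in Dbp. Dbp, whose window held none of the letters searched, had r 0.45 with Ciart and r 0.13 with Bhlhe41. Without the same libraries these were 0.95 and 0.70. Nfil3 and Bhlhe40 had r 0.63 and rho 0.74 (exact permutation p = 0.0301 and 0.0162, adjusted over 36 pairs 0.361 and 0.194). Their r was 0.64 without WT replicate 3 and Het replicate 9, the farthest in Nfil3. Hlf and Rorb, which both rose in Het, had r -0.17 and rho -0.24 within groups (exact permutation p = 0.748 and 0.586, adjusted over 36 pairs 0.932 and 0.935). Without Het replicates 2 and 9, the farthest in Hlf, r was -0.35. The r of Hlf and Rorb over the 11 libraries without centring was 0.80, which contains the genotype difference of both. The correction by the authors removed variation among libraries within groups, and its effect on these correlations cannot be read from the table.

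**Figure D5:**
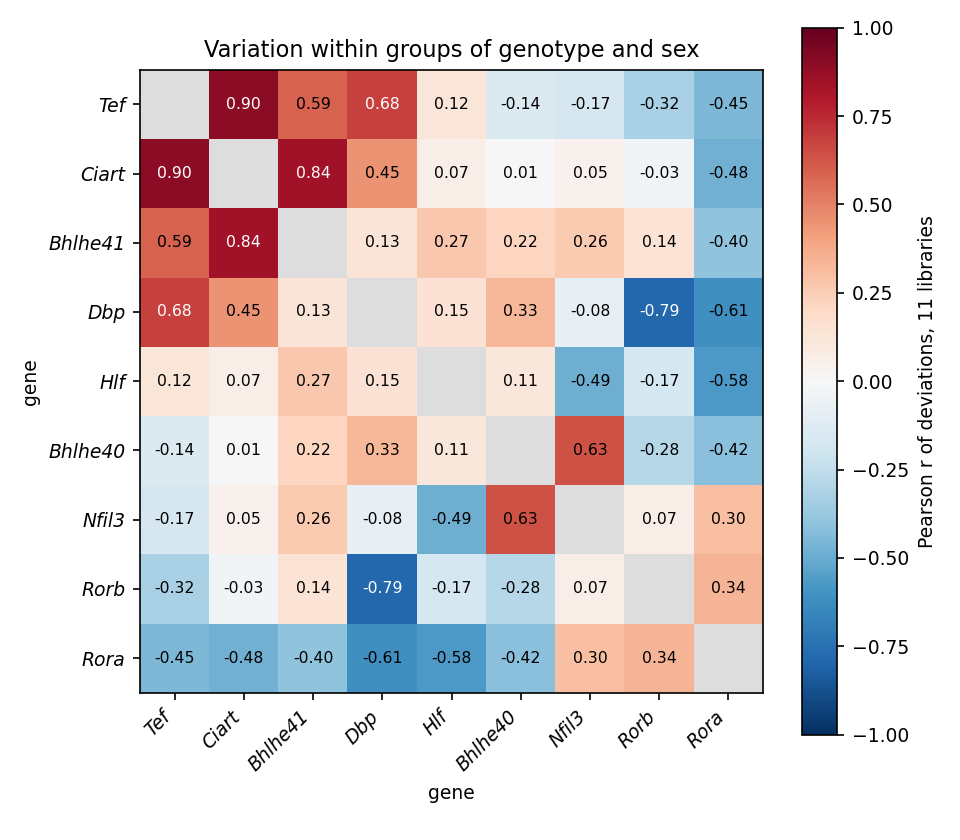
Pearson r between the 9 genes (both axes) of deviations from the mean of each group of genotype and sex over 11 libraries, in color from -1 (blue) to 1 (red), with the diagonal in grey. The pairs among Tef, Ciart and Bhlhe41 are at 0.59 to 0.90, and Dbp and Tef are at 0.68. Rorb and Dbp stand at -0.79 (exact permutation p = 0.0949, adjusted over all pairs 0.427). Without Het replicates 4 and 7, the farthest in Dbp, their r was -0.38. No pair passed after adjustment.

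The genes upstream of these regulators were listed as 17 core loop genes, all of which were tested. None of the 17 passed between the genotypes (limma; 2 had an unadjusted p under 0.05), 13 had a positive difference, with a median of 0.09 against -0.02 over all genes tested. Npas2, a partner of BMAL1 related to CLOCK, had 2.89 ± 0.67 CPM across WT (SD, n = 5) and 4.24 ± 0.87 CPM across Het (SD, n = 6), a log2 difference of 0.48 (limma adjusted p = 0.144). Clock had 14.0 ± 4.24 and 17.3 ± 1.78 CPM, a log2 difference of 0.36 (limma adjusted p = 0.209), and Per3 was at 0.25 (limma adjusted p = 0.238). Nr1d1 and Nr1d2, the REV-ERB genes that compete with ROR receptors, had log2 differences of 0.01 (SE 0.065) and -0.01 (SE 0.10). Arntl, which RORs are known to activate, was at 0.03 (SE 0.14).

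Downstream genes known to follow the clock or PAR bZIP factors in other tissues did not pass either. Of 12 such genes 11 were tested, 0 passed (limma; 4 had an unadjusted p under 0.05), 4 had a positive difference, with a median of -0.07. Tspan4, a tetraspanin, had 22.7 to 27.8 CPM in WT and 16.7 to 21.6 CPM in Het, so all Het values lay below all WT values, as was true of 1.33% of all genes tested, and the log2 difference was -0.32 (limma adjusted p = 0.0738). Cdkn1a, a cell cycle inhibitor, was at -0.35 and Tsc22d3, a glucocorticoid-induced gene, at -0.25 (limma adjusted p = 0.105 and 0.11). Pdxk, the pyridoxal kinase gene that PAR bZIP proteins are known to activate in brain, had 95.7 ± 15.8 CPM across WT (SD, n = 5) and 110 ± 7.55 CPM across Het (SD, n = 6), a log2 difference of 0.23 (limma adjusted p = 0.123). It is named beside the rule, after its values were seen, for this known link.

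As Per1 and other clock genes are also known to respond to stress hormones, 8 glucocorticoid-responsive genes were listed, 2 of which (Tsc22d3 and Cdkn1a) stand in the downstream list as well. None of the 8 passed (limma; 5 had an unadjusted p under 0.05), 3 had a positive difference, with a median of -0.30. The lowest p-values were those of Pdk4 (log2 difference -0.60, limma adjusted p = 0.0738), Sult1a1 (-0.41, 0.0764) and Cdkn1a. Their part in the values of the 9 regulators was not tested.

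Likeness over the 11 libraries was described by Pearson r of log2(CPM + 0.5), without a test because each gene below is the highest of 12843. The libraries share the correction and, for the genes that rose, the genotype difference. Rorb was most like Golt1b (r 0.97, rho 0.93), Hlf like Cdh4 (r 0.95, rho 0.89), Tef like Nptxr (r 0.94, rho 0.75) and Dbp like Cers1 (r 0.95, rho 0.91). Nfil3 was most like Tctex1d4 (r 0.96, rho 0.96), Rora like Cacna1b (r 0.93, rho 0.89), Bhlhe40 like Depdc5 (r 0.92, rho 0.90), Bhlhe41 like Eral1 (r 0.93, rho 0.85) and Ciart like Fgd5 (r 0.91, rho 0.85), a gene at only 1.55 CPM. No gene of the core loop or of the 9 was the closest to any of them. For Rorb the closest such gene was Hlf (r 0.80) at rank 320, and for Dbp it was Cry2 (r 0.43) at rank 2382.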

How the data were processed

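RNA-seq libraries from hypothalamus were analysed as 5 WT and 6 Het libraries. The deposited table holds log2 CPM, which the authors corrected with RUVr, the removal of unwanted variation from residuals, per the file name, with settings not given in the sources used here. The submitters' processing notes name Trimmomatic, Bowtie2, STAR and HTSeq with build mm10. CPM were recovered by back-transforming and subtracting each column's floor, and 100% of values were then whole multiples of 1 step per library (tolerance 0.02). Genes with a mean of at least 1 CPM (13184 of 14864) were tested on log2(CPM + 0.5) with limma 3.58.1 in R 4.3.3 (trend, genotype and sex, Benjamini-Hochberg). Replicate spread limits precision; raw read depth is unknown. Every member is named; of each list, genes past the threshold or the 3 smallest p-values; as most alike, the highest Pearson r without predicted-gene names. Members and lists were chosen with earlier results of these data known. Alternatives changed pseudocount, filter, sex term, scaling, trend, blocks, prefixes and libraries. Positions and lengths are from GENCODE M21 on mm10. The list of core loop genes holds 17, of which 1 is not reported singly here.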

Additional observations from a re-analysis of the deposited data

Results flagged for a closer look

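A check for a value far from the rest of its genotype, made on 18 groups (9 genes in WT and in Het), picked out 2 values, where chance picks about 1 group in 20. Dbp in WT replicate 3 was 5.23 CPM, below the other 4 WT values of 6.88 to 7.47 CPM. Tef in Het replicate 5 was 84.0 CPM, above the other 5 Het values of 69.3 to 74.8 CPM. Leaving out WT replicate 3 or Het replicate 5 did not bring Dbp or Tef past the threshold. No cause was tested.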

How the results depend on the processing

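With the replicate number as a block, 437 genes and 2 of the 9 members passed between the genotypes, against 453 and 2; the block changed no member's call, and since only numbers 4 and 7 occur in both genotypes, under different prefixes, the numbers do not pair samples. Other pseudocounts, the deposited log2 values, other filters and other scalings called 419 to 542 genes and 2 members. The genes and members called were 200 and 1 without the sex term, 300 and 1 with the prefix as a block, 229 and 1 without WT replicate 11 and Het replicate 9, 189 and 1 with 1 residual degree of freedom fewer, 170 and 1 without the trend, 6 and 0 within prefix 14308, and 16 and 0 within prefix 14309. They were 0 and 0 in females alone and 1 and 0 in males alone. The member lost where 1 remained was Hlf. Fewer samples entered the prefix runs and the runs of a single sex, and other causes were not tested. Leaving out single libraries gave 1 to 2 members and 140 (WT replicate 6) to 820 genes (WT replicate 3); the count was 219 and 243 when replicates 4 and 7 of WT were dropped and 220, 287, 191 and 180 when replicates 2, 4, 8 and 9 of Het were. Between the sexes 26 genes passed, 17 without WT replicate 11 and Het replicate 9, 11 with 1 residual degree of freedom fewer, 27 with the replicate block, and 10 (Het replicates 2 and 8) to 62 (WT replicate 11) without single libraries, with 0 members in each of these. The interaction called 0 genes with limma, and 613 had an unadjusted p under 0.05. Sign changes were found only for uncalled members: Dbp at 0.00103 within prefix 14308, Rora at -0.00245 within prefix 14309 and at -0.0887 in females alone, and Ciart at 0.0241 without WT replicate 11 and Het replicate 9, at 0.0524 in females alone, and from -0.117 (WT replicate 3) to 0.00332 (Het replicate 9) when single libraries were dropped. Raw read depth is unknown.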
